A study of Mus musculus with 8 samples.

Results

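T cells were described here within a sort that was aimed at other cells. CD45+CD11b+Ly6Chi leukocytes, the gate for monocytic myeloid-derived suppressor cells (mMDSCs), had been collected from mice bearing MC38 colon carcinomas, either out of the tumor or out of the blood, and T cells were found among them by their Cd3 transcripts. The set was selected on measured UMIs (unique molecular identifiers, 1 per captured transcript), so the levels of the 3 Cd3 genes are a description and no result. A droplet barcode entered it with at least 500 gene UMIs, at least 200 genes, at most 25% mitochondrial UMIs, at least 20 hashtag UMIs and at least 3 UMIs summed over Cd3e, Cd3d and Cd3g. This gave 234 of the 32121 barcodes that met the other criteria, 0.728% of them, with 83 of blood control, 26 of blood IR, 87 of tumor control and 38 of tumor IR. Tumors of the IR groups had received 1 dose of 20 Gy of ionizing radiation 3 days before collection, and control tumors none. All mice were C57BL/6J with floxed Ythdf2 alleles. Each of the 4 libraries mixed cells of mice without Cre (Ythdf2 fl/fl, labelled WT by 1 hashtag antibody) and of mice with Lyz-Cre (labelled Ythdf2-cKO by another), with 5 mice pooled per genotype, tissue and treatment. Each group was therefore 1 pooled sample, no test between groups was possible, and every interval given is a 95% interval of counting error only, which leaves out the variation between mice.

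T cells recognise peptides through a receptor of paired alpha and beta or gamma and delta chains, whose signal is carried into the cell by the CD3 chains encoded by Cd3e, Cd3d and Cd3g. Naive and central memory T cells recirculate through blood and lymph nodes with homing receptors such as Ccr7. Activated T cells enter tumors, lose much of the recirculation program, and can acquire granzymes, costimulatory receptors and checkpoint receptors such as PD-1. Ly6C is also carried by memory and activated CD8 T cells, and CD11b, encoded by Itgam, is known from myeloid cells and from NK cells.

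The 2 tumor libraries shared barcodes, and this touches every tumor value given here. Of the tumor control barcodes with at least 3 Cd3 UMIs, 86 of 87 also held at least 500 UMIs in the tumor IR matrix, and 38 of 38 tumor IR barcodes did so in the tumor control matrix, against at most 1 for any other pair of libraries. The hashtag UMIs assigned nearly all of them to 1 matrix, since only 3 barcodes met the full rule in both. The 75 shared barcodes among the T cells retained for expression in tumor control held a median of 5940 gene UMIs, 916 hashtag UMIs and 20 Cd3 UMIs there, against 2714, 0 and 8 for the same barcodes in the tumor IR matrix. For the 26 of tumor IR these medians were 6434, 1441.5 and 17.5, against 3795, 0 and 11.5 in the tumor control matrix. Without the shared barcodes, 1 retained T cell of tumor control and 0 of tumor IR remained, so no tumor value could be given without them. In barcodes without a Cd3 UMI, Ythdf2 itself went against the genotype labels, at 30.8 CPM (UMIs of a gene scaled to the total of the group) in cells labelled WT and 308 CPM in cells labelled cKO of blood control, with the same order in the other 3 libraries. Lyz2, the locus that drives Cre in these mice, was at 14441 CPM in cells labelled WT and 85.4 CPM in cells labelled cKO of the same library. Whether the Ythdf2 UMIs lay within the deleted part of the gene was not tested, and the genotypes are called by their labels throughout.

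The 3 genes of the rule are neighbours on mouse chromosome 9 (mm10), with Cd3g at chr9:44969572-44980431 on the minus strand, Cd3d at chr9:44981786-44987339 on the plus strand and Cd3e at chr9:44998740-45009627 on the minus strand. In the tumor, every barcode also held a receptor gene outside the rule, although many held NK receptor genes as well (counts below). All 87 tumor control and all 38 tumor IR barcodes held at least 1 UMI of the receptor chains Trac, Trbc1 or Trbc2. In blood the set was mixed, since 60 of 83 barcodes did so in control and 13 of 26 post-IR. At the threshold itself, 2 of the 19 blood control barcodes with 3 Cd3 UMIs and 1 of the 78 with 2 Cd3 UMIs held a receptor UMI, against 4 of 4 and 5 of 5 in tumor control.

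Barcodes with C1qa, C1qb and C1qc, the chains of the macrophage product C1q, above 2 UMIs in sum, or with 5% or more of their UMIs in the neutrophil genes S100a8, S100a9, Retnlg, Csf3r and Cxcr2, were counted as likely doublets. They made up 27 of 83 barcodes in blood control (32.5%, 22.6% to 43.7%, exact binomial interval), 11 of 26 in blood IR (42.3%, 23.4% to 63.1%), 7 of 87 in tumor control (8.05%) and 4 of 38 in tumor IR (10.5%), in all 49 of 234 (20.9%). All 38 blood barcodes of this kind met the neutrophil criterion and all 11 tumor barcodes the C1q criterion. The blood barcodes carried Cd3d with little else of a T cell. In blood control, the 27 held 83 UMIs of Cd3d, 29 of Cd3g and 15 of Cd3e, the latter in 4 barcodes, and 21 of the 27 had no UMI of Cd3e, the receptor chains, Bcl11b or Lck. In blood IR, 11 of 11 had none, with 29 UMIs of Cd3d and 0 of Cd3e. The same imbalance stood in the neutrophil-gene barcodes outside the set, where Cd3d made up 78.2% and 83.1% of Cd3 UMIs in blood control and blood IR and Cd3e 0.513% and 0.331%, against 45.1% and 50.3% for Cd3d and 19.3% and 17.2% for Cd3e in the retained T cells. Of the no-Cd3 barcodes of blood control, 61.9% met the neutrophil criterion. For the 21 and 11 blood barcodes with none of these genes the data went against the name T cell. Of the other 6 in blood control, 5 held a receptor UMI, and 3 of these had 12 to 15 Cd3 UMIs and CD8 transcripts. Values over all barcodes of the Cd3 rule are named as such below, and the name T cell is otherwise used after all likely doublets had been removed. It then still covers 1 barcode of blood control and 2 of blood IR with no UMI of Cd3e, the receptor chains, Bcl11b or Lck. The stringent set defined below leaves these out. With a minimum of 5 Cd3 UMIs, likely doublets were 4 of 56 barcodes in blood control (7.14%) and 0 of 13 in blood IR.

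**Figure D1:**
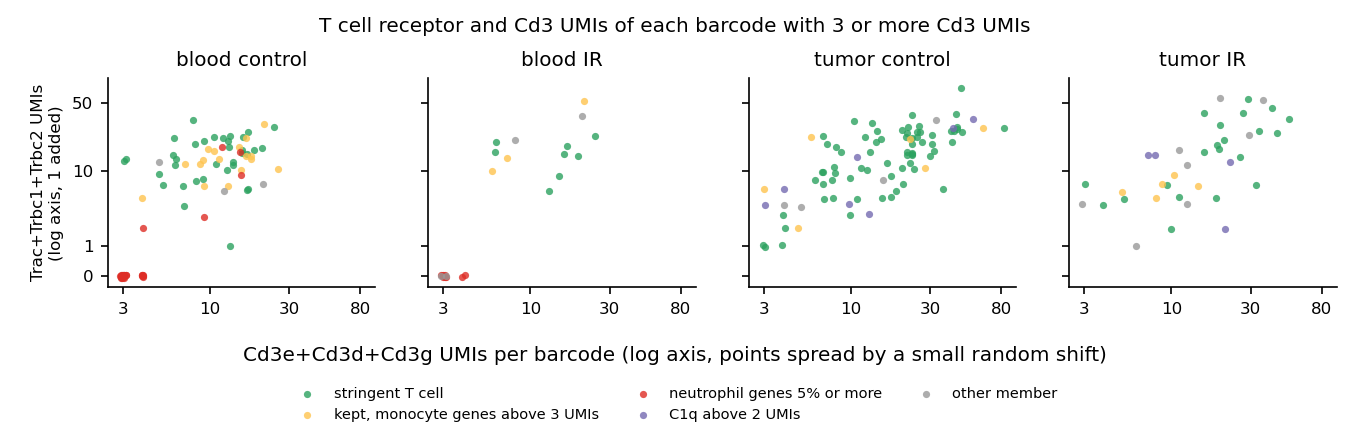
Receptor UMIs (Trac, Trbc1 and Trbc2 in sum, log axis with 1 added) against Cd3 UMIs (log axis) for each of the 234 barcodes, by library. Most neutrophil-gene barcodes of the 2 blood libraries lay at 3 or 4 Cd3 UMIs without a receptor UMI, apart from 5 of blood control with a receptor UMI, while all 125 tumor barcodes held a receptor UMI.

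After likely doublets, barcodes with both hashtags (22 of 234, 9.40%) and barcodes with no assigned hashtag had been removed, 168 T cells were retained (called kept in the plots), 53 of them from blood control, 13 from blood IR, 76 from tumor control and 26 from tumor IR. They held a median of 6749, 5078, 5884.5 and 6434 gene UMIs in that order. Receptor UMIs were present in 52 of 53, 11 of 13, 76 of 76 and 26 of 26. Trac, the constant region of the receptor alpha chain, was at 275, 423, 583 and 553 CPM, against 0.240, 0.148, 0.847 and 0.708 CPM in the no-Cd3 barcodes of the same libraries. Bcl11b, a transcription factor of T cell commitment, was at 227 and 211 CPM in blood and at 58.4 and 60.4 CPM in the tumor. It had a UMI in 42 of 53 and 10 of 13 blood cells, against 22 of 76 and 10 of 26 tumor cells. Of the 168, 32 also held more than 3 UMIs of the monocyte genes Ms4a6c, F13a1, Fn1, Chil3, Csf1r and Vcan, with 18 of 53 in blood control, 3 of 13 in blood IR, 6 of 76 in tumor control and 5 of 26 in tumor IR. In blood control these 18 had a median of 16226.5 gene UMIs and contributed 298067 of the 497818 UMIs. The 3 of blood IR contributed 52428 of 104053. A stringent set of 134 T cells (35, 8, 70 and 21) without these barcodes and with at least 1 receptor UMI was therefore compared beside the retained T cells throughout. NK receptor genes had a UMI in 3 of 35, 0 of 8, 34 of 70 and 7 of 21 of these cells. Whether NK cells were among them was not tested.

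The genes behind the sort differed in these cells. Ly6c2, which encodes Ly6C, was at 840, 855, 933 and 1081 CPM in the T cells of blood control, blood IR, tumor control and tumor IR, with a UMI in 37 of 53, 8 of 13, 58 of 76 and 18 of 26 cells. Among retained T cells neither tissue nor IR moved it by 2-fold, the log2 ratio of tumor to blood being 0.15 (−0.04 to 0.34) in control. That ratio rests largely on monocyte-gene barcodes, which held most Ly6c2 UMIs of retained blood control cells. In blood control 1 of them held 61, against at most 19 in a stringent T cell. The gene is a near copy of Ly6c1, and reads of the pair may be exchanged. Among stringent T cells of blood control, Ly6c2 had a UMI in 16 of 19 cells with CD8 transcripts (770 CPM) and in 1 of 7 with Cd4 (31.3 CPM). In contrast, Itgam had 6 UMIs over the 35 stringent T cells of blood control and was at 21.3 CPM in those of blood IR, 8.60 CPM in tumor control and 14.2 CPM in tumor IR, whereas the no-Cd3 barcodes of the 4 libraries stood at 385, 431, 356 and 618 CPM.

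The share of barcodes that met the Cd3 rule, likely doublets included, was then compared between tissues and treatments. Under the hashtag minimum it was higher in tumor than in blood and lower post-IR in both tissues. Barcodes that met the rule made up 0.863% (0.688% to 1.07%) of blood control, 0.281% (0.184% to 0.412%) of blood IR, 1.61% of tumor control and 0.484% of tumor IR. The difference of tumor from blood was 0.743 percentage points in control (0.378 to 1.15, Newcombe interval) and 0.203 points post-IR (0.0178 to 0.404). Post-IR the share was lower by 1.12 points in tumor (difference −1.12, −1.51 to −0.770) and by 0.581 points in blood (difference −0.581, −0.805 to −0.370), which left it at 0.302 and 0.326 times the control value.

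Removal of the doubtful blood barcodes widened the gap between tissues. Of the barcodes with 1 hashtag label, stringent T cells made up 0.395% and 0.0927% in the control and IR blood libraries and 1.53% and 0.344% in the tumor libraries. The tumor share stood above the blood share by 1.13 points in control (0.781 to 1.55) and by 0.251 points post-IR (0.102 to 0.438), and the IR differences were −1.18 points in tumor (−1.60 to −0.819) and −0.302 points in blood (−0.462 to −0.159). In cells labelled WT the tissue difference post-IR held 0, at 0.163 points (−0.0567 to 0.438), and at 0.0759 points by the Cd3 rule (−0.186 to 0.381). In cells labelled cKO it was 0.358 points (0.167 to 0.657), with 0 stringent T cells in blood. Both labels showed the lower share post-IR, at −1.51 points in cells labelled WT (−2.15 to −0.967) and −1.02 points in cells labelled cKO (−1.68 to −0.458) of the tumor, and at −0.639 points (−0.976 to −0.326) and −0.529 points (−0.863 to −0.230) in blood, each by the Cd3 rule alone. For blood cells labelled cKO, retained T cells differed by −0.202 points (−0.427 to −0.00801) and stringent T cells by −0.127 points, from 5 cells against 0. In blood control the 2 labels themselves differed, since retained T cells were 0.854% of cells labelled WT and 0.279% of cells labelled cKO (difference −0.575 points, −0.898 to −0.263), while 18 of the 29 barcodes labelled cKO under the Cd3 rule were likely doublets (62.1%) against 5 of 47 labelled WT (10.6%). Shares within a sort depend on every other cell that passed the gate, so fewer T cells and more of the other cells cannot be told apart. The tumor difference rested on the hashtag minimum, without which barcodes shared between the tumor matrices counted in both, the shares were 0.936% in tumor control and 0.854% post-IR (difference −0.0825 points, −0.316 to 0.150) and the tumor to blood difference in control was 0.0743 points (−0.182 to 0.321). A minimum of 2 Cd3 UMIs brought the latter to 0.0248 points (−0.391 to 0.473) and that post-IR to −0.300 points (−0.547 to −0.0518). With each barcode drawn down to 1000 UMIs and a minimum of 2 Cd3 UMIs, the IR difference in blood was −0.148 points (−0.324 to 0.0229).

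**Figure D2:**
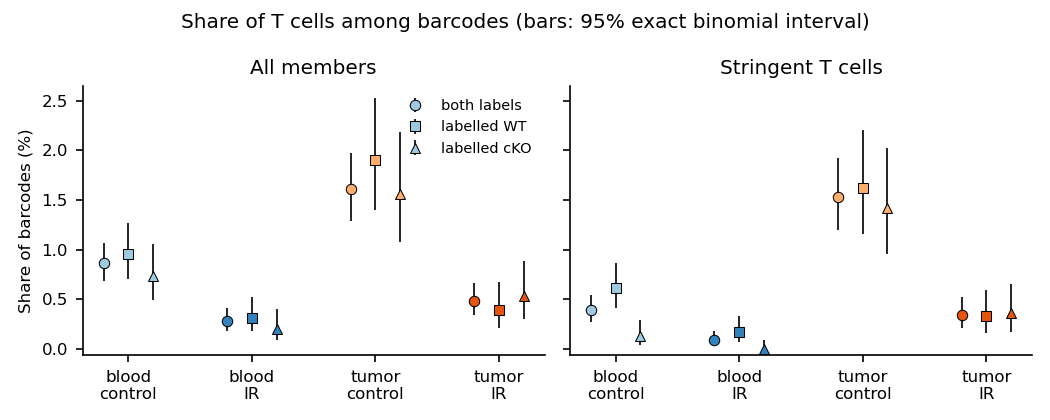
Share of barcodes (percent, bars are 95% exact binomial intervals) in each library, over both labels and for each hashtag label, that met the Cd3 rule (left, all members, likely doublets included) or were stringent T cells (right). Stringent T cells made up 1.53% of tumor control and 0.344% of tumor IR, against 0.395% and 0.0927% in blood.

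T cells carry either CD8, a heterodimer encoded by Cd8a and Cd8b1, on cytotoxic cells, or CD4 on helper and regulatory cells, whereas many gamma-delta T cells carry neither. Retained T cells with CD8 transcripts and no Cd4 UMI were 32 of 53 in blood control (60.4%), 7 of 13 in blood IR (53.8%), 33 of 76 in tumor control (43.4%) and 11 of 26 in tumor IR (42.3%). Cells with Cd4 and no CD8 transcript were 9 of 53 (17.0%), 2 of 13 (15.4%), 7 of 76 (9.21%) and 10 of 26 (38.5%). In the no-Cd3 barcodes, of which the median depth was 3026, 2927.5, 7232 and 6153 gene UMIs, at most 0.340% held a CD8 UMI and at most 0.151% a Cd4 UMI.

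In control, the tumor held more T cells without either coreceptor than blood, and post-IR its balance lay further to Cd4. Neither coreceptor was detected in 35 of 76 T cells of tumor control (46.1%), against 11 of 53 in blood control (20.8%), a difference of 25.3 points (8.66 to 39.5), and in 5 of 26 of tumor IR (19.2%), a difference from tumor control of −26.8 points (−42.3 to −5.30). Post-IR the class was 4 of 13 in blood (30.8%), where 2 of its barcodes had no UMI of Cd3e, the receptor chains, Bcl11b or Lck. The tumor differed from blood post-IR by −11.5 points (−40.5 to 14.4). The Cd4 class stood 29.3 points higher in tumor IR than in tumor control (11.1 to 48.8), and 34.3 points higher among stringent T cells (13.9 to 55.4), where it made up 6 of 70 and 9 of 21 cells. Both labels showed this order, from 11.6% to 46.2% in cells labelled WT and from 6.06% to 30.8% in cells labelled cKO. The CD8 class differed by −1.11 points (−21.3 to 20.4), an interval wide enough to hold large differences either way. After each cell had been thinned to 1000 UMIs, the Cd4 class was at 2.63% and 12% in tumor control and tumor IR, so that many of these cells rest on few Cd4 UMIs. Of the 33 stringent tumor control cells without a coreceptor UMI, 23 held a UMI of an NK receptor gene, 15 a gamma-delta gene and 9 Trdc, the delta chain constant region, at chr14:54142851-54148868 (mm10). All 33 also held a UMI of an alpha or beta chain, as the stringent set required, so these transcripts did not sort the cells into 1 class. Foxp3, the defining transcription factor of regulatory T cells, had a UMI in 3 of 35, 0 of 8, 5 of 70 and 4 of 21 stringent T cells.

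**Figure D3:**
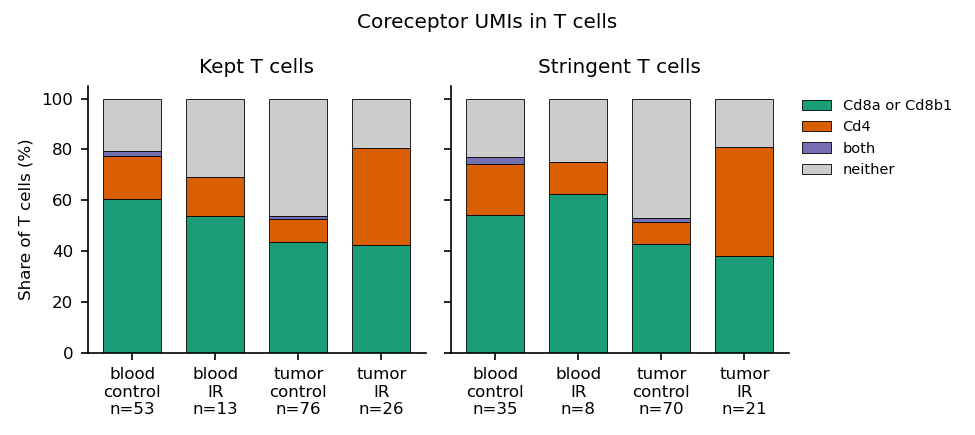
Share of T cells (percent, stacked to 100) with UMIs of Cd8a or Cd8b1, of Cd4, of both or of neither, for retained and stringent T cells of each library, with the number of cells below each bar. The Cd4 class was 8.57% of stringent T cells in tumor control and 42.9% in tumor IR.

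Gene expression was compared as the log2 ratio of CPM from UMIs summed over the retained T cells, for genes with at least 50 UMIs over both groups, and a gene was called where the ratio was at least 2-fold with a counting interval that left out 0. Between tumor and blood in control, 609 of 2739 genes were called (22.2%), 322 higher (11.8%) and 287 lower (10.5%) in tumor. In the stringent set this became 389 higher and 109 lower of 1732 (28.8% called, 22.5% higher and 6.29% lower). The recirculation program was lower in tumor T cells. Of 10 measured naive and circulating genes, 0 were called higher and 9 lower, with a median log2 ratio of −2.46 against 0.08 over all genes measured, and 9 of 10 were also called in the stringent set at a median of −2.92. The no-Cd3 barcodes moved the same way by less, at a median of −0.89 for these genes against 0.12 over all genes.

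Klf2, a transcription factor that sustains the exit from tissue into blood and lymph, was at 1292 CPM in blood control, 1182 CPM in blood IR, 102 CPM in tumor control and 171 CPM in tumor IR. It had a UMI in 53 of 53 T cells of blood control and 21 of 76 of tumor control, and the log2 ratio between these was −3.64 (−4.09 to −3.26). The blood levels stood apart from the tumor levels whatever the treatment. Dapl1, a gene of naive CD8 T cells, went from 287 to 3.77 CPM (log2 ratio −5.66, −9.31 to −4.37), and Tcf7 and Lef1, paired transcription factors of naive and stem-like T cells, had log2 ratios of −2.92 and −2.83. Il7r, the receptor for the survival cytokine IL-7, and Ccr7 were lower by less, at −1.67 and −1.49. The remaining gene, the chromatin organizer Satb1, was not called, at 259 CPM in blood and 224 CPM in tumor. In each stringent T cell, the list's summed CPM had a median of 5418 in blood control and 5797 in blood IR, against 635 and 523 in the tumor libraries.

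Cytotoxic effector genes were higher in tumor T cells, with 14 of 15 measured genes called higher and 1 lower (median log2 2.97), and 14 of 14 higher in the stringent set. The make-up of the cells differed between the tissues. NK receptor genes had a UMI in 34 of 70 stringent cells of tumor control and 3 of 35 of blood control. No coreceptor was detected in 46.1% and 20.8% of retained cells. The part of this make-up in the differences between tissues was not tested. Gzmb, the granzyme that cleaves caspases in target cells (chr14:56258838-56262260, mm10, minus strand), was at 20.1 CPM in blood control, 48.1 CPM in blood IR, 2176 CPM in tumor control and 3953 CPM in tumor IR. The blood control level came from 10 UMIs of 1 cell, whereas 58 of 76 tumor control cells held the transcript, and the log2 ratio was 6.63 (5.87 to 7.82). Gzmc was at 0 and 3445 CPM in blood control and tumor control, at least 572-fold higher against a floor of 3 UMIs over the blood group. It had a UMI in only 16 of 76 tumor cells, 1 of which held 36.7% of its UMIs. That barcode lay at the threshold with 3 Cd3 UMIs, and held 1 receptor UMI and 9 UMIs of NK receptor genes. The barcodes with 394, 239, 200 and 132 Gzmc UMIs held 7, 9, 3 and 11 UMIs of NK receptor genes. Those with 16, 13 and 11 Gzmc UMIs held none. Most Gzmc UMIs of tumor control thus lay in barcodes with NK receptor genes. Gzmf was at least 270-fold higher by the same floor, from 8 cells, 1 of which held 68.4% of the UMIs. Nkg7, a granule protein of cytotoxic lymphocytes, stood at 348 and 2249 CPM in these groups (log2 2.69, 2.46 to 2.93) and was present in 69 of 76 tumor cells. Ccl5, a chemokine of effector and memory T cells, was at 802 and 4023 CPM (log2 2.32, 2.17 to 2.49). The list's summed CPM in each stringent T cell had a median of 374 and 1009 in the control and IR blood libraries and of 10640 and 6326 in the tumor libraries, with a range from 321 to 295244 among tumor control cells. The highest value was that of the barcode with the most Gzmc UMIs.

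**Figure D4:**
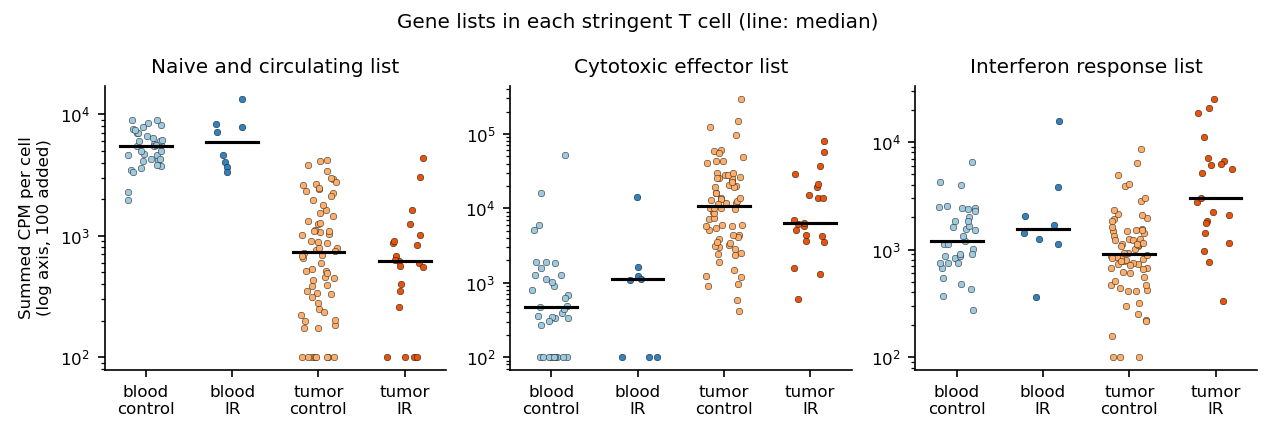
Summed CPM of 3 gene lists in each stringent T cell (log axis with 100 added), by library, with a line at the median. The naive and circulating list had medians of 5418 and 5797 in blood against 635 and 523 in tumor, the cytotoxic list the opposite order (374 and 1009 against 10640 and 6326), and the interferon list its highest median, 2888, in tumor IR.

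Costimulatory and checkpoint receptors followed the granzymes. Of the regulatory T cell list, 6 of 6 measured genes were called higher in tumor (median log2 3.61), of the CD4 helper list 3 of 3 (4.82), and of the exhaustion and checkpoint list 4 of 4 (4.37 with genes absent from blood set at their bound). The no-Cd3 barcodes showed the same direction, with medians of 2.41, 2.32 and 4.55 for these lists. Several of these genes are induced on any activated T cell. Tnfrsf9, the costimulatory receptor 4-1BB (chr4:150914562-150946102, mm10, plus strand), was at 0, 9.61, 732 and 900 CPM in the 4 libraries and at least 121-fold higher in tumor control than in blood control, with a UMI in 60 of 76 tumor cells. Icos and Tnfrsf4, both costimulatory receptors of helper T cells, had log2 ratios of 5.57 (4.40 to 8.26) and 4.82 (3.98 to 6.21). Tnfrsf18, the receptor GITR, stood at 30.1 and 528 CPM in control, and Ctla4, the inhibitory rival of CD28, at 22.1 and 262 CPM. Pdcd1, which encodes PD-1 (chr1:94038305-94052553, mm10, minus strand), had 0 UMIs in either blood library and was at 264 CPM in 38 of 76 cells of tumor control, at least 43.8-fold higher. Rgs16 was at least 25.3-fold higher, and Nr4a2, a nuclear receptor induced by receptor signalling, had a log2 ratio of 4.09 (3.06 to 5.98). Outside the lists, Ifitm1, an interferon-induced membrane protein, stood at 8.04 CPM in blood and 1471 CPM in tumor (log2 7.21, 6.15 to 9.40), while Sidt1 and Actn1 were lower in tumor at −3.69 and −3.38, and at −3.86 and −3.92 in the stringent set, where both had fewer than 50 UMIs.

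Other lists separated tumor from blood T cells less evenly. The 3 measured NK receptor genes were called higher in tumor, Klra7 at log2 3.31, Klre1 at 2.68 and Klrb1c at 2.42, and Trdc at 2.18. Of 12 homing and residency genes, 4 were called higher and 3 lower, with Ly6a, an interferon-inducible surface antigen, at 46.2 CPM in blood and 720 CPM in tumor (log2 3.91). Proliferation genes were called higher in 3 of 6, among them Stmn1, a tubulin regulator of dividing cells, at log2 3.65 (2.81 to 4.94). The list of T cell markers outside the rule had 5 of 14 genes called higher and 1 lower, but 1 higher and 2 lower in the stringent set. The monocyte list was lower in tumor in 7 of 8 genes (median −2.35), with Lyz2 at log2 −3.93, and Fos at −3.38; in the stringent set 2 of 3 measured monocyte genes were called higher, none lower, and Fos stood at −0.11. The monocyte list's summed CPM was 11414 and 4555 in the control and IR blood libraries and 2406 and 4144 in the tumor libraries among retained T cells, and 826, 1172, 1476 and 2094 in the stringent set. Its part in the other differences was not tested. In the stringent set, the naive list had a median of −2.92 and the cytotoxic list one of 3.71.

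In irradiated mice the comparison of tumor with blood rested on 26 and 13 T cells. Of 878 genes measured, 200 were called (22.8%), 156 higher (17.8%) and 44 lower (5.01%) in tumor, and scaling by TMM factors, which shifted all log2 ratios by 0.15, gave 193 higher and 32 lower. The stringent set gave 150 higher (30.5%) and 26 lower (5.3%) of 491. Cytotoxic genes were higher in 10 of 11 (median log2 3.89), regulatory genes in 4 of 5 and CD4 helper genes in 2 of 2, and naive genes were called lower in 1 of 3 measured (median −0.95 against 0.23 over all genes). Gzmb had a log2 ratio of 6.18 (5.13 to 7.99), Tnfrsf9 of 5.81 (4.05 to 11.9), Tnfrsf4 of 5.54, Ctla4 of 4.53 and Klf2 of −2.74 (−3.38 to −2.23). For these named genes the order of the tissues was as in control. Ccl4, a chemokine of activated T cells, had a log2 ratio of 6.77, yet 86.6% of its tumor UMIs lay in 1 barcode, without which it fell below the minimum of 50 UMIs (ratio 5.15). Genes called lower in tumor included Tsc22d3, a glucocorticoid-induced regulator, at −2.71, and Txnip, an inhibitor of glucose uptake, at −1.58, with Hnrnpm at −1.51, mt-Nd5 at −1.49 and Limd2 at −1.39. Interferon response genes were called higher in 5 of 10 (median 1.02), but in 1 of 4 among stringent T cells.

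In the tumor, 150 of 2026 genes were called between IR and control (7.4%), 105 higher (5.18%) and 45 lower (2.22%) post-IR. With TMM factors, which shifted log2 ratios by −0.19, 73 were higher and 78 lower, so that the balance of directions depended on the scaling. The stringent set gave 60 higher (3.63%) and 29 lower (1.76%) of 1651 (5.39% called). Of the interferon response list, 9 of 10 measured genes were called higher and 0 lower (median log2 2.22 against 0.04 over all genes). Type I and type II interferons induce these genes and the former act by an element known as the ISRE. In the stringent set 5 of 7 were called (median 1.37 against 0.06). Among retained T cells of each label, the list's median was 1.70 in cells labelled WT and 2.28 in cells labelled cKO. The no-Cd3 barcodes of the same libraries showed the same direction, with a median of 1.80 over these genes. Transfer of transcripts from those cells into T cell droplets was not tested.

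Isg15, a ubiquitin-like modifier (chr4:156199424-156200818, mm10, minus strand), was at 112.5 CPM in blood control, 221 CPM in blood IR, 113 CPM in tumor control and 1041 CPM in tumor IR. The transcript was found in 20 of 76 and 18 of 26 tumor cells, with a log2 ratio of 3.17 (2.78 to 3.64), and of 2.70 in the stringent set. In the no-Cd3 barcodes it was at 342 and 2152 CPM. Ifi27l2a, a small interferon-induced protein, stood at 347 and 2248 CPM in tumor control and tumor IR (log2 2.69, 2.45 to 2.95), and Bst2, the virion tether tetherin, at 113 and 518 CPM (2.17, 1.72 to 2.68). Ifi203, a member of the cytosolic DNA-sensor family, had a log2 ratio of 1.12 (0.63 to 1.63), but was not called in the stringent set, at 0.73. Irf7, the factor that amplifies the type I response, was at 35.8 and 241 CPM, Slfn5 at 15.1 and 246 CPM, Zbp1 at 99.9 and 342 CPM and Gbp2 at 52.8 and 267 CPM. Ly6a, listed among homing genes and also interferon-inducible, was at 720 and 1715 CPM (log2 1.25, 1.04 to 1.47). All of these were higher in tumor IR than in tumor control, and Isg15, Ifi27l2a and Bst2 were higher within each coreceptor class with more than 5 stringent cells in both groups. In CD8 cells Isg15 went from 51.7 to 292 CPM and Ifi27l2a from 160 to 877 CPM, and in Cd4 cells from 76.4 to 1088 CPM and from 1095 to 3300 CPM, although the tumor control level of Isg15 in Cd4 cells was 3 UMIs. The no-coreceptor class, with 33 and 4 cells, had Isg15 at 136 and 731 CPM but Ifi27l2a at 140 and 0 CPM.

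**Figure D5:**
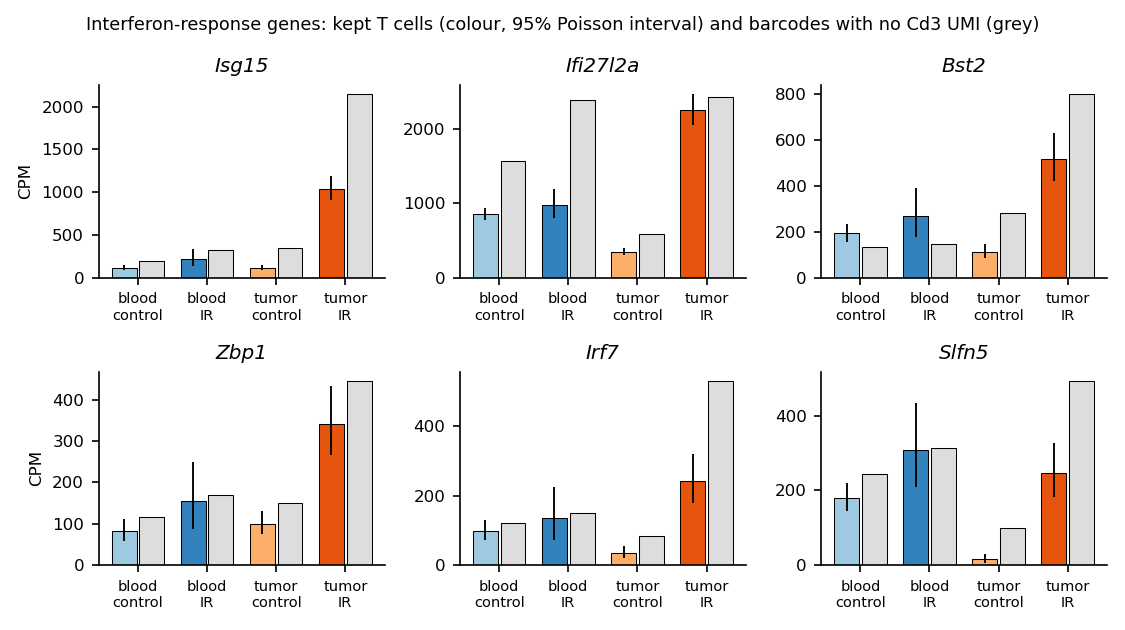
CPM of 6 interferon-response genes in retained T cells (coloured bars, 95% Poisson intervals) and in the barcodes with no Cd3 UMI of the same library (grey bars). Isg15 stood at 113 CPM in tumor control T cells and 1041 CPM in tumor IR T cells, and at 342 and 2152 CPM in the no-Cd3 barcodes.

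The promoters of the whole interferon response list were searched for an ISRE-like element, whether or not a gene had been measured here. The element was GAAA followed after any 2 bases by GAAA. The search ran from 250 bases before to 50 bases after each RefSeq start (GRCm38.p6), on both strands. The letters were found for 10 of the 14 list genes with a promoter entry (71.4%), against 3.44% of all 32851 promoters and 3.99% of 27025 genes with any start. Of the genes measured in the tumor comparison, 76 of 1620 held them (4.69%), with 16 of 77 among those called higher post-IR (20.8%) and 1 of 35 among those called lower (2.86%). A match describes the letters and not a bound site, and the list was chosen as interferon-induced. The 10 list genes with a match were Isg15, Bst2, Ifi203, Slfn5, Gbp2, Ifi206, Ifi208, Rsad2, Ifit1 and Ifit3. Irf7, Zbp1 and Ifi27l2a were not among them. The genes called higher post-IR include list members such as Isg15 and Bst2, so their share is not separate from that of the list. For 3 of the genes described above, the stretch is shown in the direction of transcription with the matched letters in capitals and 10 bases on either side.
Isg15, chr4:156200877-156200906, minus strand: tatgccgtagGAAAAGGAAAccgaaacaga
Bst2, chr8:71537583-71537612, minus strand: ggcattccagGAAAATGAAActgaaaggct
Ifi203, chr1:173942508-173942537, minus strand: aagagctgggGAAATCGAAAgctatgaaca
The match lay 78 bases before the start in Isg15, 130 in Bst2 and 35 in Ifi203, and in Isg15 and Bst2 it overlapped further matches downstream.

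Effector genes of tumor T cells moved in both directions post-IR. Of 14 measured cytotoxic genes, 2 were called higher and 4 lower (median log2 −0.34), and 4 higher and 3 lower in the stringent set (0.03). The medians by label were −1.74 in cells labelled WT and 0.31 in cells labelled cKO. Gzmb was not called among retained T cells (2176 and 3953 CPM, log2 0.86, 0.73 to 0.99) and passed the limit in the stringent set at 1.18. Within CD8 cells of that set it was at 2656 CPM in tumor control, with a UMI in 25 of 30, and at 8057 CPM in tumor IR, with a UMI in 8 of 8. Gzmc was lower at a log2 ratio of −1.74, with 151 of its 205 UMIs post-IR and 671 of 1827 in control each in 1 barcode, and at −2.79 without its top barcodes. The post-IR barcodes with 151 and 50 Gzmc UMIs each held 7 UMIs of NK receptor genes. Gzmf was at −7.71, with 590 of 863 control UMIs in 1 barcode, and at −7.51 without it. Gzmd had 0 UMIs in tumor control and 68 UMIs from 2 cells in tumor IR, at least 60.5-fold higher by the floor, with 59 of them in 1 barcode, without which it fell below the minimum of 50 UMIs. In the last 500 bases of their transcripts, Gzmd shared 10.3% of its 25-base words with Gzmf and 36.1% with Gzme, so the division of reads between these near copies is uncertain, whereas Gzmb and Gzmc shared 0 with any of the others. Xcl1, a chemokine that attracts cross-presenting dendritic cells (chr1:164931644-164935527, mm10, minus strand), was at 1538 CPM in 37 of 76 cells of tumor control and 101 CPM in 4 of 26 of tumor IR (log2 −3.90, −4.65 to −3.30). Ccl5 was lower overall (−1.40, −1.58 to −1.23), at −2.47 in cells labelled WT but 0.24 in cells labelled cKO. Ifng was at 518 CPM in both groups (log2 0.00, −0.34 to 0.33), with −2.59 in cells labelled WT and 2.70 in cells labelled cKO.

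Checkpoint genes likewise split, with 1 of 6 called higher and 3 lower and medians of −1.42 in cells labelled WT and 0.05 in cells labelled cKO. Pdcd1 was at 264 CPM in tumor control and 95.6 CPM in tumor IR (log2 −1.44, −2.24 to −0.77) and Rgs16 at 153 and 25.1 CPM (−2.48), whereas Lag3, a receptor for MHC class II, was at 71.6 and 171 CPM (1.22, 0.54 to 1.96). Cd4 itself went from 52.8 to 146 CPM (1.42, 0.67 to 2.27) and was not called without its top barcode. Trdc had a UMI in 9 of 76 and 1 of 26 cells (−1.85) and Klre1 a log2 ratio of −1.17, while of the 8 measured activation genes, the 6 regulatory genes and the 13 T cell markers outside the rule 0 were called; in the stringent set 1 regulatory gene was called higher. The p53 targets Cdkn1a, the cell-cycle inhibitor p21, and Ccng1, cyclin G1, were called higher at 1.70 (1.32 to 2.12) and 1.20 (0.39 to 2.09), Cdkn1a at 185 and 609 CPM with a UMI in 23 of 76 and 17 of 26 cells, whereas the death gene Bax was at 0.21 (−0.31 to 0.72). Cdkn1a was also called in the stringent set, at 1.86, while Ccng1 had fewer than 50 UMIs there (1.66). The p53 target list summed to 622 and 1267 CPM in retained T cells of tumor control and tumor IR. In the no-Cd3 barcodes it summed to 1372 and 2008 CPM. Transfer of these transcripts into T cell droplets was not tested. Among other genes, Cst3, the protease inhibitor cystatin C, had a log2 ratio of 2.86, with 69.4% of its tumor IR UMIs in 1 barcode, Il1r2, the decoy receptor for IL-1, one of 2.45, and Mxd1, a Myc antagonist, one of 1.57. Maf was at 1.72 but at 0.61 in the stringent set. Klra1, an inhibitory Ly49 receptor, was at −3.38 and Rgs2, a G-protein regulator, at −2.07. Genes of other cells moved as well, with 4 of 6 monocyte genes (0 of 3 in the stringent set) and 4 of 4 MHC class II genes called higher; the latter had medians of −4.39 in cells labelled WT and 4.29 in cells labelled cKO. The class II values rested on few barcodes, since 1 held 103 of the 158 H2-Aa UMIs of tumor IR, and the summed CPM of the list in stringent cells of that library had a median of 112 and a highest value of 37542. Their part in the other results was not tested. Since the Cd4 and no-coreceptor classes differed between these libraries, change within a class and change in the classes cannot be told apart for the sums over all T cells.

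In blood, where 13 T cells stood against 53, 65 of 1605 genes were called between IR and control (4.05%), 30 higher (1.87%) and 35 lower (2.18%). TMM factors shifted the log2 ratios by −0.32 and gave 9 higher and 100 lower, and the stringent set gave 10 higher (2.01%) and 16 lower (3.22%) of 497 (5.23% called). The recirculation program was nearly level, with 0 of 10 genes called (median log2 0.06 against 0.02 over all genes). Klf2 was at −0.13 (−0.42 to 0.15) and Tcf7 at 0.12 (−0.48 to 0.68), intervals that leave out a 2-fold change, while Il7r was at −0.80 (−1.43 to −0.24) and Dapl1 at −0.44 (−1.16 to 0.21). Of 8 interferon genes 0 were called and 8 had a ratio above 0 (median 0.46, of which the TMM shift removes most), while 1 of 3 was called higher in the stringent set (median 0.92). Slfn5 was at 0.77 (0.15 to 1.38), Bst2 at 0.47 and Ifi27l2a at 0.21. Isg15 was at 112.5 and 221 CPM, with 19 of the 23 UMIs post-IR in 1 barcode.

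Of the 8 measured genes of the cytokine and receptor activation list, 3 were called lower and 0 higher post-IR in blood (median −0.99), and 2 of 5 were lower in the stringent set. The list holds immediate-early genes, which are switched on within minutes of a stimulus and also by handling of cells. Egr1 was at 297 CPM in blood control, in 16 of 53 cells, and at 9.61 CPM in blood IR, in 1 of 13 (log2 −4.54, −10.3 to −2.45), whereas the stringent set held only 2 and 0 UMIs of it. Nfkbia, the NF-κB inhibitor that NF-κB itself induces, was at −1.04 (−1.82 to −0.37), and Fos and Jun were at −0.99 and −0.73 without a call. Gzma, called lower at −2.08, had 80.2% of its control UMIs in 1 barcode, without which it fell below the minimum of 50 UMIs (−1.26). The genes with the largest ratios in each direction that both labels shared were Ube3a at 1.45, Mark2 at 1.26, Anp32e at 1.22, Diaph1 at 1.20 and Pbrm1 at 1.16, and Ccdc88c at −2.55, Pik3r1 at −2.41, Imp3 at −2.20, Ndufa5 at −1.80 and Txk, a kinase of the receptor pathway, at −1.74. Only Txk among these 10 reached 50 UMIs in the stringent set, where it was called at −1.30. The cKO label of blood IR was 3 retained barcodes, of which 2 held monocyte genes and 0 were stringent. A direction shared by both labels could therefore not be checked in stringent T cells. The class II genes called higher, 4 of 5, rested on 1 barcode that held 222 of the 223 Cd74 UMIs of blood IR.

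The genotype labels were last compared within T cells, although Lyz-Cre is a driver of myeloid cells. Ythdf2 in retained T cells was at 37.4 CPM in cells labelled WT and 300 CPM in cells labelled cKO of blood control, 30.6 and 413 CPM in blood IR, 40.2 and 103 CPM in tumor control and 60.8 and 120 CPM in tumor IR. The log2 ratios were 2.88 (2.09 to 4.01), 3.12 (1.66 to 6.92), 1.29 (0.31 to 2.5) and 0.88 (−0.57 to 2.81). The order was that of the no-Cd3 barcodes, and it did not stand out of the counting error once barcodes with monocyte genes had been removed, since stringent T cells of tumor control stood at 34.2 and 44.7 CPM (0.35, −1.12 to 1.89) and those of blood control had 9 and 0 UMIs in 30 and 5 cells. Lyz2 behaved likewise, with 9357 CPM in retained T cells labelled WT and 81.2 CPM in those labelled cKO of blood control, whereas 14 UMIs in 30 stringent cells labelled WT and 2 UMIs in 5 labelled cKO gave a log2 ratio of 0.0065 (−3.17 to 2.13).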

How the data were processed

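The authors deposited raw counts of UMIs per gene and hashtag for 4 libraries of the 10x Genomics 3′ chemistry, made with Cell Ranger on mm10 (version 6.0.1 in the study's processing notes and methods, an earlier one in the file headers). Per library, the matrices held 51731085, 51653956, 87703837 and 81601307 gene UMIs (blood control, blood IR, tumor control, tumor IR). Hashtags were called with HTODemux of Seurat 5.3.0 (R 4.3.3) at its 0.99 quantile among barcodes with at least 20 hashtag UMIs, and likely doublets, hashtag doublets and negatives were removed before expression was compared. No doublet caller other than these rules was run. UMIs were summed per group in Python 3.11.15 (numpy 2.4.6, scipy 1.17.1, pandas 2.3.3), 1 UMI scaled to depth was added to each sum, and exact conditional binomial intervals were taken. A gene was called at a log2 ratio of at least 1 in size with an interval off 0, among genes with at least 50 UMIs. Ratios scaled by TMM factors (edgeR 4.0.16, no count test) were an alternative, as were other thresholds, thinning to 1000 UMIs and each label alone. The members, the 24 gene lists and the rules were chosen with earlier results of these data known. Genes were named as the up to 5 members of a list with the most UMIs, and the 5 largest ratios per direction that both labels shared, outside lists of other cell types and at least as high as in no-Cd3 barcodes. Irf7, Slfn5, Zbp1, Gbp2 and Ifng in tumor, Isg15 in blood, and the genes given within coreceptor classes fell outside this rule and were chosen after their values had been seen. The stringent set and the removal of each gene's top barcode were added after the data had been examined. Members of 2 lists are counted but not reported by name here. The ratio script was tested on simulated data. Gene positions came from GENCODE vM21 on mm10.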

Additional observations from a re-analysis of the deposited data

Results flagged for a closer look

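Outside the set, barcodes with at least 3 Cd3 UMIs and fewer than 20 hashtag UMIs numbered 32 in the tumor control matrix and 71 in the tumor IR matrix, whereas the blood matrices held 0. They were looked at again because the comparisons had left them out. Of the 32, 31 carried a barcode that met the full rule in the tumor IR matrix, and all 71 carried one that did so in the tumor control matrix.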

How the results depend on the processing

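Each group was 1 pooled library, so the intervals cover counting error alone and no replicate could be left out. No paired analysis was possible because each group held 1 sample. Depth limited blood IR most, where 13 retained T cells held 104053 gene UMIs. The stringent set and the removal of each gene's top barcode were chosen after seeing the data, and the cause of a change was not tested unless fewer UMIs or cells entered by construction.

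For the share of T cells, a minimum of 2 Cd3 UMIs moved the tumor to blood difference to 0.0248 points in control and, reversed, to −0.300 points post-IR, and the blood IR difference to −0.850 points. Without a hashtag minimum the tumor to blood differences were 0.0743 points in control and 0.573 points post-IR, and the tumor IR difference was −0.0825 points. The blood IR difference was −0.148 points after thinning to 1000 UMIs (with at least 2 Cd3 UMIs), with an interval that held 0 (−0.324 to 0.0229). It was −0.302 points for stringent T cells. A minimum of 5 Cd3 UMIs left likely doublets at 7.14% in blood control and 0% in blood IR. The CD8 class of blood control was 39.6% after thinning and 44.6% over all barcodes of the rule, and the Cd4 class after thinning was 3.77% (control) and 0% (IR) of blood T cells and 2.63% (control) and 12% (IR) of tumor T cells.

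Genes called in tumor against blood in control, tumor against blood post-IR, IR against control in tumor and the same in blood numbered 609, 200, 150 and 65. With 20 UMIs as the minimum they numbered 1245, 537, 393 and 204, with 200 UMIs 140, 39, 24 and 9, and after thinning 65, 22, 19 and 6. Over all barcodes of the rule the counts were 954 and 455 between tissues and 99 for blood IR. Cells labelled WT alone gave 92 between tissues post-IR and 95 for tumor IR, and cells labelled cKO alone 244 and 114 between tissues and 30 for blood IR. Stringent T cells gave 89 for tumor IR and 26 for blood IR, and TMM factors 109 for blood IR.

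The log2 ratio of Ythdf2 between the labels became −2.62 in stringent cells of blood control, which turned its direction, and 0.98 (at least 5 Cd3 UMIs) and 0.35 (stringent) in tumor control. That of Lyz2 became 0.0065 in blood control and 0.84 in tumor IR for stringent cells.

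Directions of single genes turned mainly among transcripts of other cells. Between tissues in control, Apoe was at 0.71 over all barcodes of the rule, and Ccr2 at 4.16 and Plac8 at 1.75 in stringent cells. Hmgb2 was at −0.22 between tissues post-IR in cells labelled cKO. For tumor IR, Lyz2 was at −0.53 over all barcodes of the rule and −2.65 without its top barcode, H2-Ab1 at −0.12 over all barcodes of the rule, Cd74 at −2.86, H2-Aa at −3.68, H2-Ab1 at −5.43 and H2-Eb1 at −5.09 in cells labelled WT, and Ccl5 at 0.24 in cells labelled cKO. For blood IR, Retnlg was at −0.51 over all barcodes of the rule, Cd74 at −7.82, H2-Aa at −6.06 and H2-Ab1 at −5.83 in cells labelled cKO, and Cd74 at −5.14, H2-Aa at −5.42 and H2-Ab1 at −5.14 without the top barcode.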
